A study of Manacus vitellinus and Taeniopygia guttata with 24 samples.

Results

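Gene expression was compared between a pair of wing muscles of the same testosterone-treated golden-collared manakins. The comparison holds 6 of the 24 libraries of the series: 3 of the scapulohumeralis caudalis (SH) and 3 of the pectoralis (PEC), taken by their titles and paired by number, since the same bird code stands on both. The birds were males (Manacus vitellinus) that had received a testosterone-filled implant under the skin at the base of the neck. For contrast, 6 libraries came from 3 male manakins with an empty implant (blank birds), and 6 from 3 male zebra finches (Taeniopygia guttata) given testosterone after an empty implant and without the antiandrogen flutamide (testosterone-only finches). The treatment labels and the protocol of the finches do not match for all birds of the series. Those used here are labelled as given testosterone, and that they had no flutamide was read from the plus sign in their titles. The sources used here state no age, hormone dose or time after implantation, nor whether the testes were intact. Each implant group consisted of 3 birds, so the statistics describe the spread among 3 animals.

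The pectoralis is the large breast muscle that pulls the wing down in flight. The SH lies at the shoulder and retracts the wing, a movement on which the wing-snapping courtship display of male manakins relies. Testosterone is a steroid hormone that acts on muscle largely by changing which genes its cells transcribe. Skeletal muscles owe their different speed and endurance largely to which fast or slow forms of the contractile and calcium-handling proteins their fibers make. The question posed by the 6 libraries is how the transcriptomes of these muscles differ in a bird under testosterone.

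Expression was given in RPKM, that is reads relative to the length of the gene and the size of the library, under zebra finch gene identifiers. The files did not pair the identifiers with gene names, and 0 of 14596 identifiers occurred in the reference gene table at hand. Genes are therefore given by identifier, a pair per direction and fit, and the markers that would check the muscle labels and other cell types were not tested. In whole muscle, fewer cells of a type and less RNA per cell cannot be told apart.

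The 6 libraries held 9742206 to 15434530 reads and listed 8966 to 10094 genes each. In all, 10765 genes were listed in at least 1 of them, and the 8341 genes with 1 RPKM or more in 3 or more libraries were tested. At the median gene length, 3 reads correspond to 0.152 to 0.240 RPKM, and values below that are not told from 0 at this depth.

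The SH library of bird 2 stood apart from the other 5. Its correlations with them on log2(RPKM + 1) across the 8341 genes were 0.719 to 0.789, while the other 10 pairs of libraries correlated at 0.883 to 0.933. A set of 349 genes was at 10 RPKM or more in this library and over 8-fold above each of the other 11 manakin libraries, against 0 to 4 such genes in any other. Chosen that way, they had a median of 67.5 RPKM in SH of bird 2. Their median was 0.339 RPKM in PEC of the same bird, where 149 of them were not listed, and 1.48 and 2.42 RPKM in SH of birds 1 and 3. In the finches, which the choice did not use, their medians were 0.0790 to 0.497 RPKM, and 49 of the 349 reached 10 RPKM in any finch library. Their median length was 1244 bases, against 1305 bases over the genes tested. Of these genes, 222 were among the 8341 tested. Calls, counts of genes by direction and comparisons with other birds are given below with and without bird 2. Medians by expression level and shares of abundant genes are given bird by bird. Genes listed in one muscle alone are counted with all birds only.

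No gene passed the test with all 3 birds. With limma on log2(RPKM + 1) and the bird as a term, 0 of 8341 genes had an adjusted p below 0.05 (0% called), 1092 had an unadjusted p below 0.05, and the smallest adjusted p was 0.164. Limma-voom on recovered reads also called 0, with 1429 below an unadjusted 0.05. The genes with the smallest p in each direction, among those with the same sign in all 3 birds, are described next. That choice favours differences that are alike in every bird, so these genes do not stand for the rest.

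ENSTGUG00000006326, with a recovered length of 5331 bases, had the smallest p. It was at 25.05, 32.3 and 34.1 RPKM in PEC of birds 1, 2 and 3, and at 0.0770, 0.389 and 0.0625 RPKM in SH. All 3 PEC libraries were high and all 3 SH libraries were near 0, where the values stood for 4, 32 and 4 reads. The log2 difference was -4.74 ± 0.34 (SE, 3 birds; limma adjusted p = 0.164). It passed when the bird was left out of the model as a replicate block, as the only gene called (0.012% of those tested, limma adjusted p = 0.00799). Without bird 2 it also passed (limma adjusted p = 0.0449). Blank birds had 30.7, 0.0129 and 68.8 RPKM in SH against 56.9, 50.5 and 46.3 RPKM in PEC. SH was thus near 0 in blank bird 2 alone, and blank bird 3 was higher in SH. The finches were at 0.143 RPKM or less in both muscles.

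ENSTGUG00000008227 was at 11.1, 11.6 and 9.92 RPKM in PEC and at 0.275, 1.16 and 0.446 RPKM in SH. The muscles did not overlap, and PEC varied little among the birds. The log2 difference was -2.90 ± 0.35 (SE, limma adjusted p = 0.358). Blank birds were also lower in SH, at 0.233, 1.29 and 0.458 RPKM against 2.51, 35.7 and 6.47 RPKM in PEC. The finches were at 0.0739 RPKM or less in SH and had none in PEC.

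ENSTGUG00000011307 went the other way, at 184, 67.5 and 65.3 RPKM in SH and 0.721, 4.12 and 0.229 RPKM in PEC. Every SH library exceeded every PEC library, and bird 1 had the highest SH value. The log2 difference was 5.41 ± 0.63 (SE, limma adjusted p = 0.358), and without bird 2 it was 6.25 ± 0.42 (limma adjusted p = 0.0449). Blank birds were also higher in SH, at 30.9, 44.3 and 163 RPKM against 0.426, 0.459 and 0 RPKM in PEC. So was each finch, at 35.6, 8.70 and 46.7 RPKM in SH against 0.166, 0.0468 and 0.266 RPKM in PEC.

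ENSTGUG00000002233 was at 8.45, 162 and 8.83 RPKM in SH. In PEC it was at 14.2 RPKM in bird 2 and listed in neither bird 1 nor bird 3. The muscles overlapped, since PEC of bird 2 exceeded SH of birds 1 and 3. Within each bird SH was higher, by 3.24, 3.42 and 3.30 on the log2 scale. The closeness of these steps depends on the 1 RPKM added before the log, since PEC was 0 in birds 1 and 3. The mean difference was 3.32 ± 0.32 (SE, limma adjusted p = 0.358), and 5.47 ± 0.74 with 0.1 RPKM added (SE, limma adjusted p = 0.415). Blank birds had 4.86, 0 and 0.806 RPKM in SH and none in PEC. Each finch was higher in SH, at 36.4, 4.55 and 4.24 RPKM against 0, 0.404 and 0.398 RPKM in PEC.

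**Figure D1:**
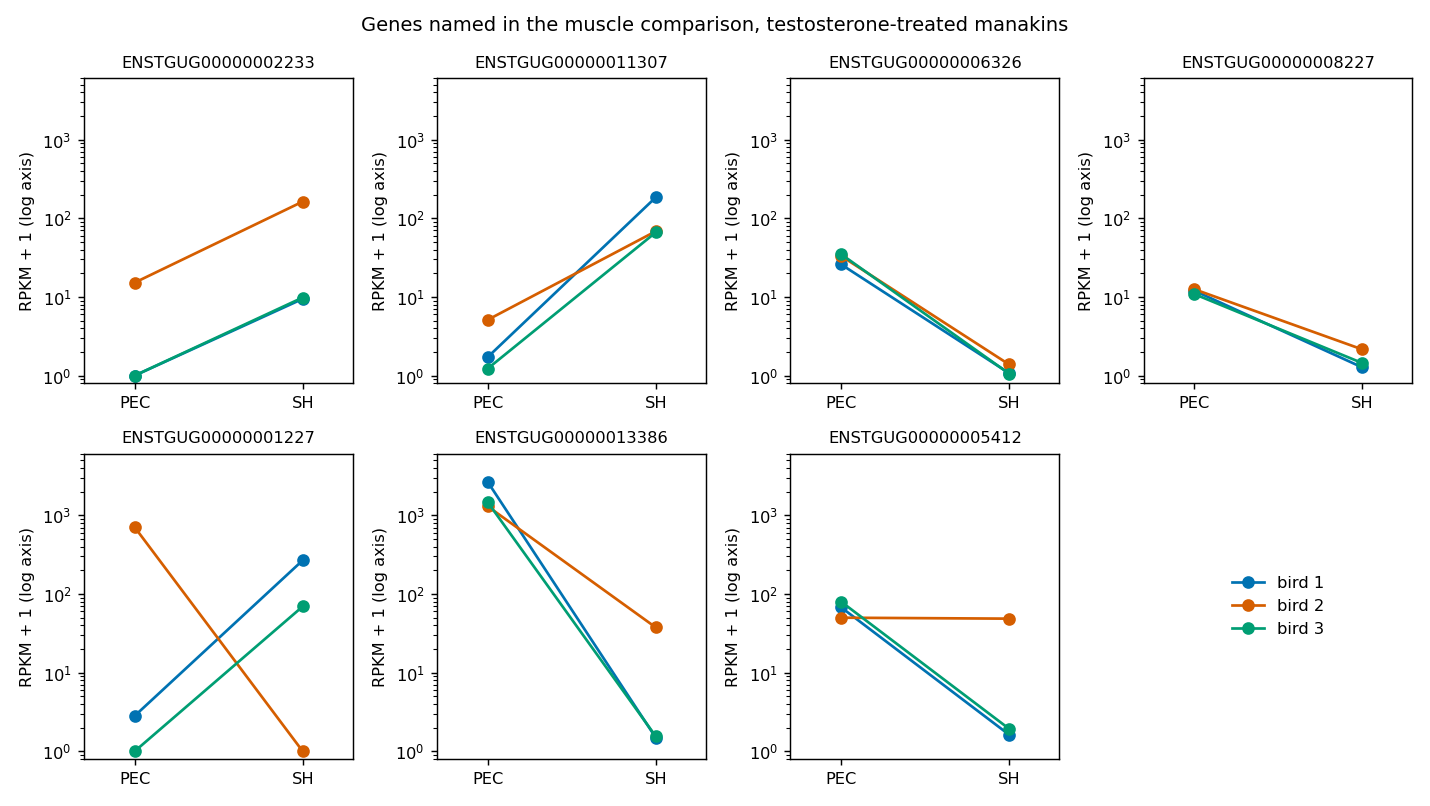
RPKM + 1 on a log axis for 7 genes in PEC and SH of the 3 testosterone-treated birds, with a line joining the muscles of a bird. The upper row holds the genes with the smallest p with all birds, and birds 1 and 3 coincide for ENSTGUG00000002233. The lower row holds genes called without bird 2, where bird 2 runs against the others for ENSTGUG00000001227 and is nearly level for ENSTGUG00000005412.

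Without bird 2, limma called 10 genes (0.12% of 8341), 6 higher and 4 lower in SH, with log2 differences of 5.43 to 6.34 and of -4.82 to -10.34. This fit has 2 birds and 1 residual degree of freedom, so it leans on variances shared across genes. ENSTGUG00000011307 and ENSTGUG00000006326, described above, were among the 10. The others named here have the largest differences in this fit, a choice made after the values were seen.

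ENSTGUG00000013386 had the largest difference. It was at 2651 and 1464 RPKM in PEC of birds 1 and 3 and at 0.488 and 0.545 RPKM in their SH, which gives -10.34 ± 0.41 (SE, limma adjusted p = 0.0177). In bird 2, which this fit left out, PEC was at 1298 and SH at 36.5 RPKM. The gene passed the filter on low values only with the libraries of bird 2, so that bird is not an independent check. Over all 3 birds the difference was -8.60. In the blank birds SH was at 0.116, 0.654 and 0.163 RPKM against 413, 649 and 0.169 RPKM in PEC, so that PEC of blank bird 3 was as low as SH.

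ENSTGUG00000005412 was at 67.0 and 79.2 RPKM in PEC and at 0.632 and 0.940 RPKM in SH of birds 1 and 3 (-5.38 ± 0.36, SE, limma adjusted p = 0.0449). Bird 2 showed hardly any difference, at 48.9 RPKM in PEC and 47.6 RPKM in SH. In the blank birds it was at 160, 0.565 and 211 RPKM in SH and at 0.361, 0.155 and 113 RPKM in PEC. SH was thus higher in each blank bird, with log2 differences of 6.89, 0.44 and 0.90. That direction is opposite to that of testosterone-treated birds 1 and 3. Both muscles were low in blank bird 2 and both were high in blank bird 3.

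ENSTGUG00000001227 was at 267 and 68.4 RPKM in SH of birds 1 and 3, at 1.82 RPKM in PEC of bird 1, and not listed in PEC of bird 3 (6.34 ± 0.37, SE, limma adjusted p = 0.0449). Bird 2 was the reverse, with 706 RPKM in PEC and no listing in SH. The gene was at 0.860 to 8.97 RPKM in the 6 libraries of the blank birds, and no blank bird reached the levels of these 3 libraries.

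The blank birds give values that the choice of the 10 genes did not use. Of the 6 genes higher in SH, 5 were higher in all 3 blank birds, as were 23.8% of all genes. Of the 4 lower genes, 2 were lower in all 3 blank birds (13.4% of all genes). Bird 2 had a part in the choice, because the filter on low values counted its libraries and 4 of the 10 genes passed it only with them. These were ENSTGUG00000006326, ENSTGUG00000011307, ENSTGUG00000013386 and ENSTGUG00000005412. Of the 6 genes higher in SH, 4 were also higher in bird 2, as were 70.3% of all genes. All 4 of the others were lower in bird 2, 3 of them by 2-fold or more, where 29.5% of all genes were lower. Since bird 2 helped to choose the genes, nothing is read from its counts.

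The 3 birds differed in how far their muscles stood apart. The median log2 difference over 8341 genes, SH minus PEC, was 0.38 in bird 1, 0.63 in bird 2 and 0.18 in bird 3. A difference of 2-fold or more was seen in 2129 genes (25.5%) of bird 1, in 3922 (47.0%) of bird 2 and in 1270 (15.2%) of bird 3. In the blank birds the medians over the same genes were 0.017, 0.12 and 0.13, and 1095, 906 and 1711 genes differed by 2-fold or more. Bird 2 had the widest spread of the 9 birds compared, and bird 3 lay within the range of the blank birds in its count of 2-fold differences. The median within-muscle SD on log2(RPKM + 1) was 0.55 in SH and 0.43 in PEC with all birds, and 0.33 and 0.36 in birds 1 and 3. A median SD from fewer birds tends to be smaller at the same spread, so these pairs of values are not directly comparable.

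**Figure D2:**
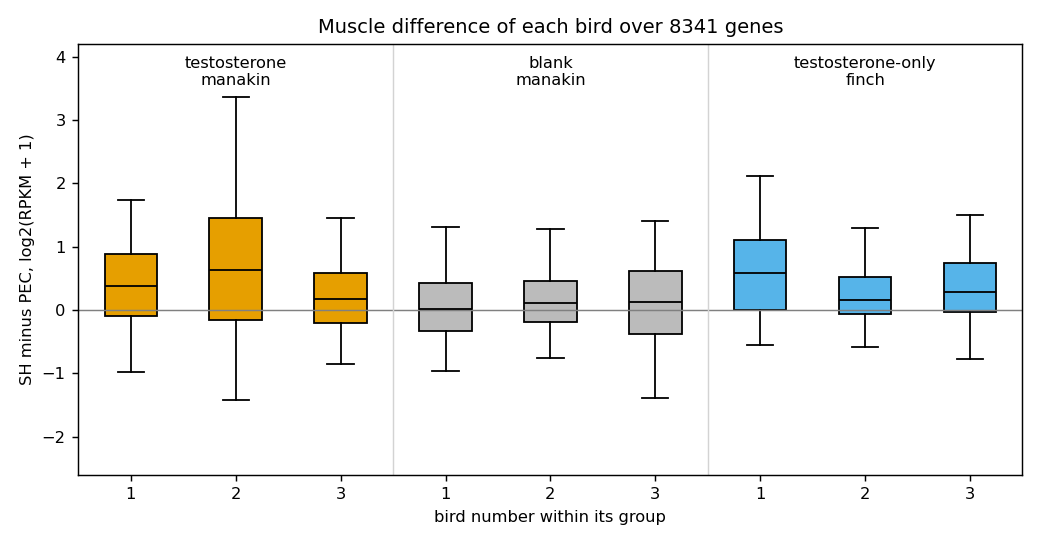
SH minus PEC on log2(RPKM + 1) over 8341 genes for each bird of the 3 groups, with the median (line), quartiles (box) and the 5th and 95th percentiles (whiskers). Testosterone-treated bird 2 has the widest box, and the blank birds have medians of 0.017 to 0.13.

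Which genes differed was shared only weakly among the birds. Across the 8341 genes, the muscle difference of bird 1 correlated with that of bird 2 at r = 0.141 (rho = 0.221) and with that of bird 3 at r = 0.125 (rho = 0.133). Birds 2 and 3 correlated at r = 0.343 (rho = 0.267). The blank birds had r of 0.123 to 0.346 on the same genes and the testosterone-only finches 0.559 to 0.675. These birds share no library, but genes within a library share its depth and composition, so the values describe the birds and carry no test.

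**Figure D3:**
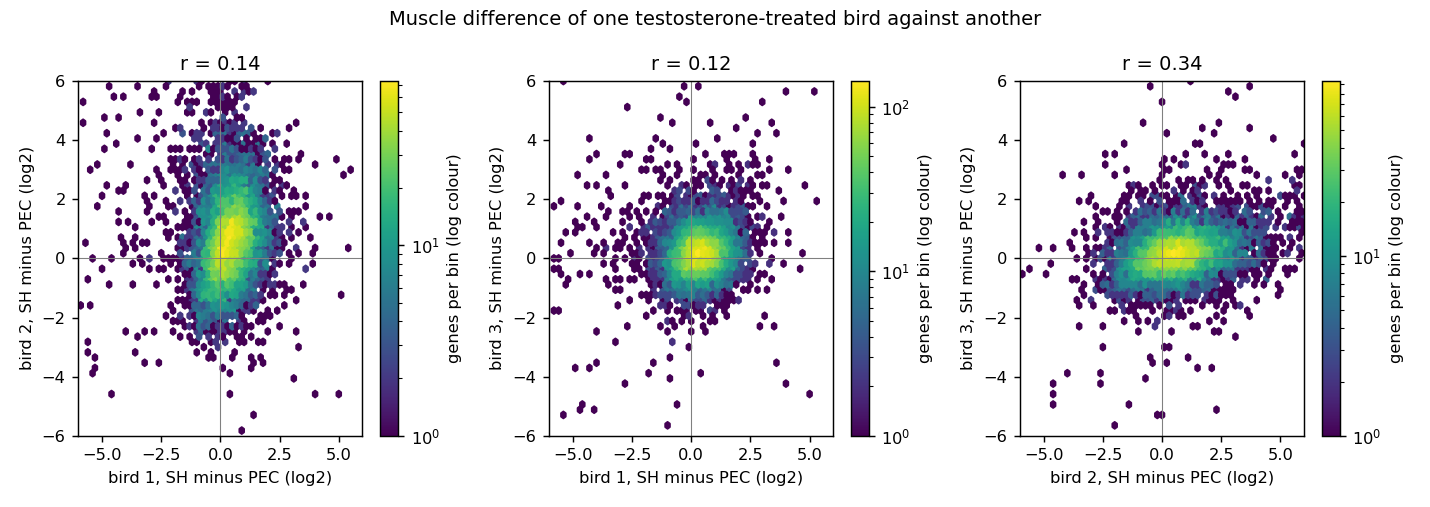
Muscle difference (SH minus PEC, log2 scale) of one testosterone-treated bird against another over 8341 genes, with the colour giving genes per bin on a log scale. The clouds are broad, with r between 0.125 and 0.343, and axes end at 6 in either direction, so that 119 genes beyond the limit in any bird are not drawn in every panel.

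SH exceeded PEC in all 3 birds in 3096 genes (37.1%) and fell below it in all 3 in 640 (7.67%). The muscles did not overlap in 1614 genes with SH higher (19.4%) and in 232 genes with SH lower (2.78%). In 205 genes SH was higher by 2-fold or more in every bird (2.46%), and in 21 genes lower by as much in every bird (0.252%). This imbalance moved with the scaling. The median log2 difference over all genes was 0.43 as deposited and 0.05 after dividing each library by its median ratio to the others, and the counts of 2-fold genes were then 95 higher and 64 lower. All 95 were among the 205, and all 21 were among the 64. Without bird 2 the counts of 2-fold genes were 342 higher and 52 lower as deposited. SH was then higher in both birds in 3879 genes (46.5%) and lower in 1101 (13.2%), and the muscles did not overlap in 2732 (32.8%) and 580 (6.95%), with fewer birds to meet each rule.

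The levels of the 205 and the 21 genes come from the libraries that chose them and are a description. The 205 had a median of 1.69 RPKM in PEC and 16.6 RPKM in SH, where all genes tested had 9.76 and 15.7 RPKM, and they made up 2.39% of SH RPKM and 0.302% of PEC RPKM. The 21 had a median of 54.9 RPKM in PEC and 5.59 RPKM in SH, and they took 4.75% of PEC RPKM and 0.293% of SH RPKM. Of the 21 genes, 6 (28.6%) averaged 500 RPKM or more over the 6 libraries, as did 2 of the 205 (0.976%) and 2.51% of all genes tested. Median recovered length was 747 bases in the 21 genes, 1263 in the 205 and 1305 in all genes tested. Of the 205, 42 (20.5%) belonged to the 349 genes that were high in SH of bird 2, as did 2.66% of all genes tested. Those genes always meet the 2-fold rule in bird 2 by the way they were chosen, so nothing is read from that share.

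Birds outside the choice showed the 205 genes higher in SH as well. In blank birds 201 of the 205 were listed, and 112 of them (55.7%) were higher in SH in all 3 birds, against 23.8% of all genes listed there. Their median log2 difference was 0.67 in the blank birds, where all genes had 0.10. In testosterone-only finches 184 were listed and 125 (67.9%) were higher in SH in all 3 birds, against 49.97% of all genes, with medians of 0.87 and 0.40. Of the 21 genes, 7 (33.3%) were lower in SH in all 3 blank birds, against 13.5% of all genes, with a median log2 difference of -0.75. In the finches 18 of the 21 were listed and their direction was mixed. There 5 (27.8%) were lower in SH in all 3 birds, against 8.05% of all genes, but 12 (66.7%) had a higher mean in SH and the median was 0.10. For the 342 and 52 genes that meet the 2-fold rule without bird 2, 181 of 337 listed (53.7%) were higher in all 3 blank birds and 217 of 315 (68.9%) in all 3 finches. Of the 52, 13 (25%) were lower in all 3 blank birds, and 5 of 43 listed (11.6%) in all 3 finches, where their median was 0.27.

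The direction of the muscle difference changed with expression level. Among 2099 genes averaging under 5 RPKM, the median of the mean log2 difference was 0.45, and 78.1% had a higher mean in SH. The 4523 genes at 5 to 50 RPKM were alike, with a median of 0.50 and 80.5% higher. At 50 to 500 RPKM (1510 genes) the median was 0.22, and among the 209 genes at 500 RPKM or more it was -0.40, with 31.1% higher in SH. In this most abundant class the medians of birds 1, 2 and 3 were -0.30, -0.78 and -0.15. They were 0.45, 0.69 and 0.17 under 5 RPKM, 0.44, 0.77 and 0.21 at 5 to 50 RPKM, and 0.21, 0.19 and 0.13 at 50 to 500 RPKM. With median-ratio scaling the 4 medians of the mean difference were 0.15, 0.10, -0.22 and -0.84, so the class at 50 to 500 RPKM changed sign and the other 3 did not. The shares with a higher mean in SH were then 61.5%, 56.1%, 37.2% and 15.8%. By bird, the rescaled medians were 0.15, 0.22 and 0.019 under 5 RPKM and 0.039, 0.16 and -0.0003 at 5 to 50 RPKM. Bird 3 thus showed almost no SH excess in these classes after rescaling.

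**Figure D4:**
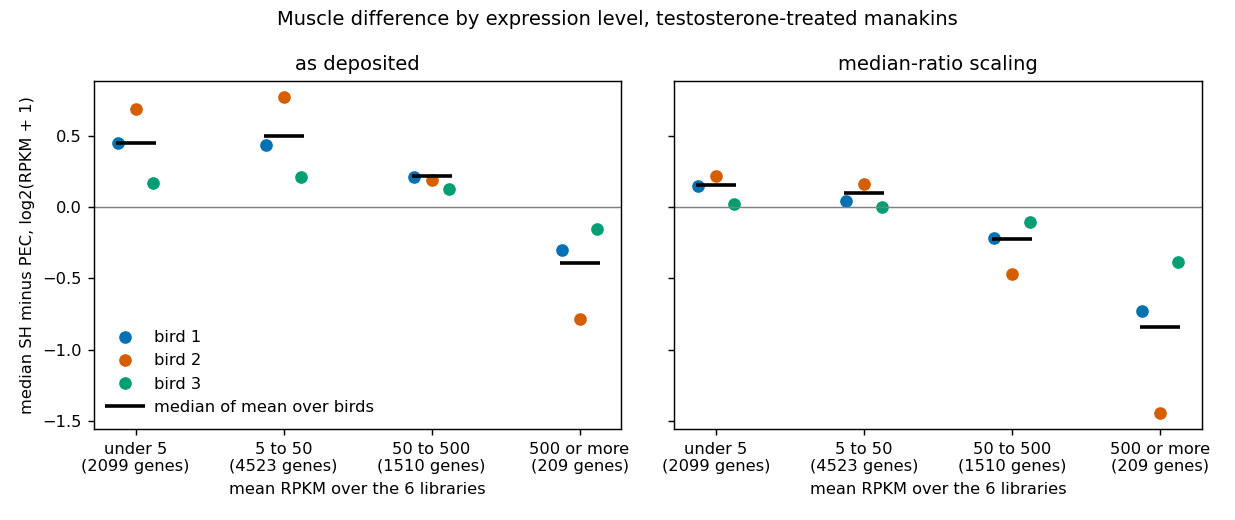
Median muscle difference (SH minus PEC, log2 scale) in 4 classes of mean RPKM, for each testosterone-treated bird (points) and for the mean over birds (horizontal marks), as deposited and with median-ratio scaling. Genes at 500 RPKM or more have medians below 0 in each bird under both scalings.

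A few transcripts held a large share of the signal in both muscles. The top 20 genes of each library together accounted for 31.4%, 29.1% and 33.8% of RPKM in SH of birds 1, 2 and 3, and 35.7%, 38.1% and 36.7% in PEC. SH was lower in each bird, by 5.38 ± 3.22 percentage points (SD, n = 3; exact paired permutation test, two-sided p = 0.25, the smallest that 3 birds can give). SH was also lower in every blank bird, at 31.9%, 31.8% and 30.5% against 34.1%, 33.1% and 34.5% in PEC. The same held in every finch, at 37.3%, 39.9% and 45.8% against 47.8%, 43.9% and 50.1%. When genes were ranked by mean RPKM per muscle, the top 20 lists had 11 in common, which is 55% of either list. The 9 genes found in the PEC list alone took 12.99%, 12.95% and 8.57% of RPKM in PEC and 1.81%, 2.98% and 3.53% in SH, and 7 of them were lower in SH in all 3 birds. The 9 genes of the SH list alone took 4.05%, 13.8% and 4.05% in SH, with bird 2 far above the other birds, and 3.06%, 2.00% and 1.54% in PEC. These lists were ranked on the same libraries, so their shares are a description.

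The most abundant transcript was the same in both muscles. ENSTGUG00000009394, with a recovered length of 546 bases, was at 45744, 22721 and 55852 RPKM in SH and 52569, 70382 and 62687 RPKM in PEC. SH of bird 2 was the lowest library, and the ranges overlapped. The log2 difference was -0.67 ± 0.44 (SE, limma adjusted p = 0.45).

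Few genes were seen in one muscle alone. Of the 10765 genes listed in at least 1 of the 6 libraries, 118 were listed in all 3 SH libraries and no PEC library. Another 4 were listed in all 3 PEC libraries and no SH library. Each SH library listed more genes than any PEC library, 9699 to 10094 against 8966 to 9221. How far that bears on the 2 counts was not tested. Most of the 118 were rare, with a median of 8 reads, and 19 had 10 or more reads in every SH library. Their median was 0.558, 2.73 and 0.604 RPKM in SH of birds 1, 2 and 3, and 33 of them belonged to the 349 genes that were high in SH of bird 2. The 349 were chosen on that SH library, so nothing is read from this count. A gene missing from a list had no read, which at these depths allows up to 3 reads and does not show it to be off.

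Set against the blank birds, the muscle difference was distinct in 1 gene. The test asked whether SH minus PEC differed between testosterone-treated and blank birds, in 12 libraries with the bird as a term. It called 1 of 8989 genes (0.0111%). An unadjusted p below 0.05 was found in 454 genes, about as many as that threshold gives when no gene differs. ENSTGUG00000000287 was at 79.5, 68.99 and 51.2 RPKM in PEC of the blank birds and at 0.261, 0.354 and 0.157 RPKM in their SH. In testosterone-treated birds it was at 12.1, 4.49 and 1.51 RPKM in PEC and at 18.6, 2.78 and 4.57 RPKM in SH. The blank birds thus separated the muscles without overlap. In the testosterone-treated birds the muscles overlapped, with log2 differences of 0.58, -0.54 and 1.15 in birds 1, 2 and 3. The mean muscle difference was 0.40 under testosterone and -5.73 without it, and the difference between them was 6.13 ± 0.51 (SE, limma adjusted p = 0.0466).

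That call was lost without testosterone-treated bird 1 (limma adjusted p = 0.143) or 3 (0.275) and without blank bird 1 (0.492), 2 (0.46) or 3 (0.463), and also without the bird as a replicate block (0.109), with limma-voom (0.154) and under both scalings (0.129 and 0.203). It held without bird 2 (0.0142), and the difference itself stayed between 5.75 and 8.32 in all 14 alternatives.

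The other genes named for this contrast, taken by smallest p within each direction, did not pass. ENSTGUG00000007465 was at 6.17, 10.9965 and 9.34 RPKM in PEC and 0.144, 0 and 1.11 RPKM in SH of testosterone-treated birds, against 0, 0.636 and 0.199 RPKM in PEC and 0.548, 0.771 and 1.44 RPKM in SH of blank birds. It was thus at 1.44 RPKM or less in every manakin library outside PEC under testosterone (difference between groups -3.43 ± 0.48, SE, limma adjusted p = 0.761). ENSTGUG00000005330 was at 7.07, 0.253 and 1.92 RPKM in PEC and 0.199, 0.157 and 0.161 RPKM in SH under testosterone. In blank birds SH was the higher muscle, at 2.21, 11.2 and 5.76 RPKM against 0.426, 0.0733 and 0.138 RPKM in PEC (-3.81 ± 0.83, SE, limma adjusted p = 0.761). ENSTGUG00000013223 was higher in SH in each testosterone-treated bird, at 4.07, 1.71 and 3.30 RPKM against 1.05, 0 and 0.936 RPKM in PEC. It was lower in SH in each blank bird, at 0.861, 1.59 and 2.71 against 6.97, 3.999 and 4.93 RPKM (2.54 ± 0.47, SE, limma adjusted p = 0.761).

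**Figure D5:**
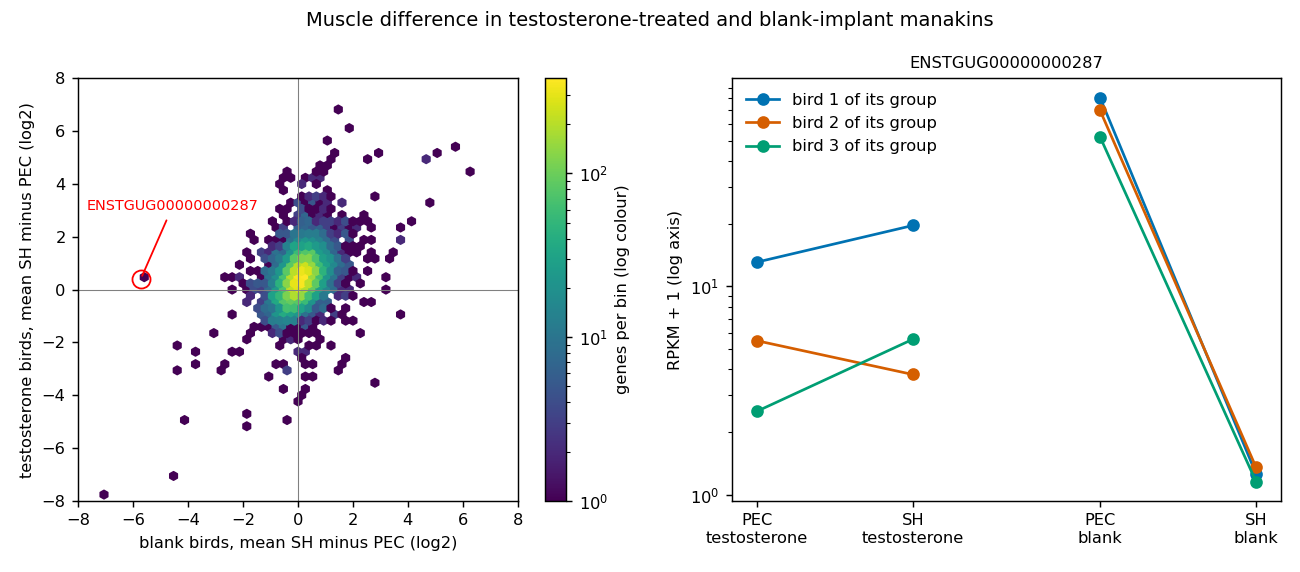
Left, mean muscle difference (SH minus PEC, log2 scale) of testosterone-treated against blank birds over 8341 genes, with ENSTGUG00000000287 circled, colour giving genes per bin on a log scale, and 2 genes beyond the axes not drawn. Right, RPKM + 1 of that gene on a log axis in both muscles of the 6 manakins. The lines are steep in all 3 blank birds and less steep, with mixed direction, in the testosterone-treated birds.

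The muscle differences of testosterone-treated and blank birds were partly shared. Over 8326 genes listed in blank birds, the group means correlated at r = 0.417 (rho = 0.37), and at r = 0.465 without bird 2, with 66.2% of genes of the same sign. Of these genes 59.4% had a higher mean in SH in the blank birds. The median difference of the testosterone-treated birds was also above 0, at 0.43, so part of the equal signs is given by that alone. The groups share no bird, and the values describe these libraries without a test.

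Compared with testosterone-only finches, no gene passed with all birds. In 12 libraries with the bird as a term, limma called 0 of 6818 genes (0%), with 533 below an unadjusted p of 0.05, while limma-voom called 2, both lower in manakin relative to finch. The group means of the muscle difference correlated at r = 0.332 (rho = 0.365), or 0.354 without manakin 2, over 7784 genes listed in finches, and 75.7% had the same sign. Of these genes 79.1% had a higher mean in SH in the finches, a larger share than in the blank birds. That alone raises the share of equal signs, which is thus not comparable with the share for the blank birds. Manakin values are listed under finch genes, so a level difference between species is not interpreted, and low values compress differences on the log2(RPKM + 1) scale.

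ENSTGUG00000007465, which in the testosterone-treated manakins was at 6.17 to 10.9965 RPKM in PEC, was arranged the other way in the finches, at 14.9, 6.15 and 7.81 RPKM in SH and 0.170, 1.37 and 0.995 RPKM in PEC (difference between testosterone-treated manakins and finches -5.34 ± 0.62, SE, limma adjusted p = 0.102). It passed without testosterone-treated manakin 2 (limma adjusted p = 0.0092) and without the bird as a replicate block, where it was the only gene called (0.00329).

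ENSTGUG00000006917, a gene with a recovered length of 5838 bases, was higher in SH in every testosterone-treated manakin, at 395, 209 and 346 RPKM against 78.8, 59.2 and 65.3 RPKM in PEC. In the finches it was at 0.920 to 2.25 RPKM in SH and 0.927 to 2.49 RPKM in PEC, with no bird higher in SH. The difference between testosterone-treated manakins and finches was 2.32 ± 0.38 (SE, limma adjusted p = 0.125), and 2.50 without manakin 2 (limma adjusted p = 0.0439). In the blank manakins this gene was also higher in SH, at 129.7, 121 and 192 RPKM against 48.6, 47.0 and 47.7 RPKM.

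ENSTGUG00000001851 had its highest values in finch PEC, at 1014, 93.2 and 14.2 RPKM, against 12.3, 0.489 and 0 RPKM in finch SH. Testosterone-treated manakins had 70.9, 36.1 and 70.8 RPKM in SH and 67.2, 101 and 19.0 RPKM in PEC, with overlap (difference between testosterone-treated manakins and finches 5.54 ± 0.89, SE, limma adjusted p = 0.125, and 0.0084 without manakin 2). For ENSTGUG00000001851 the blank manakins had 24.3, 4.06 and 4.85 RPKM in SH against 45.4, 9.38 and 65.4 RPKM in PEC. Each blank bird was thus lower in SH, as was each finch. ENSTGUG00000003194 was at 6.40, 5.38 and 4.19 RPKM in finch SH and not listed in finch PEC. In testosterone-treated manakins it was at 2.13, 0 and 0 RPKM in SH and 2.30, 0.903 and 1.17 RPKM in PEC. Blank manakins had 0.810, 1.14 and 0 RPKM in SH and none in PEC, so that no blank bird was lower in SH (difference between testosterone-treated manakins and finches -3.35 ± 0.42, SE, limma adjusted p = 0.102, and 0.0206 without manakin 2).

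Without manakin bird 2, limma called 17 of 6818 genes (0.249%), 5 higher and 12 lower in manakin relative to finch. The largest difference was again that of ENSTGUG00000013386, which in the finches was at 182, 262 and 189 RPKM in SH and 491, 1096 and 682 RPKM in PEC. Finch SH was lower than finch PEC in all 3 birds, with log2 differences of -1.42, -2.06 and -1.85, and manakins 1 and 3 had a far wider gap. The difference between testosterone-treated manakins and finches was -8.57 ± 0.45 (SE, limma adjusted p = 4.16e-05). ENSTGUG00000013035, also called, was at 0.442 and 0.958 RPKM in SH and 43.2 and 24.05 RPKM in PEC of manakins 1 and 3, while finch SH was higher than finch PEC in each bird (-5.95 ± 0.54, SE, limma adjusted p = 0.00157). Manakin 2, left out here, was higher in SH, at 158 RPKM against 35.4 RPKM in PEC. All 3 blank manakins were also higher in SH, at 51.6, 70.9 and 47.9 RPKM against 43.7, 40.9 and 40.5 RPKM, a direction opposite to that of testosterone-treated birds 1 and 3.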

How the data were processed

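The deposited values were RPKM per gene under Ensembl release 68 identifiers, per the file headers, in 1 list a library, and genes above 0 alone were listed; an unlisted gene was read as 0. RNA was extracted with Trizol and made into strand-specific TruSeq libraries, per the labels' protocols. CASAVA, cutadapt and Bowtie 0.12.9 are named without role or settings, per the submitters' processing notes. The genome build, the counting and the mismatches allowed are not given in the sources used here.

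Of the series, 18 libraries were used. Muscle differences were tested on log2(RPKM + 1), which understates the change of low genes, with limma 3.58.1 (R 4.3.3) and Benjamini-Hochberg adjustment over all genes with 1 RPKM or more in 3 or more libraries (of each species in the finch comparison), with a call at an adjusted p below 0.05. The bird was a term of the model. The pairing comes from bird codes in the names of the deposited files. As a check, each SH library's departure from its group mean was correlated with that of PEC of the same bird, giving -0.111, 0.0627 and 0.252 for birds 1, 2 and 3. SH of bird 1 correlated best with PEC of bird 3 (0.148) and SH of bird 2 with PEC of bird 1 (0.208). Blank birds 1, 2 and 3 gave 0.125, 0.201 and -0.156. There SH of bird 1 correlated best with PEC of bird 3 (0.246) and SH of bird 3 with PEC of bird 2 (0.130). Each finch SH correlated best with its own PEC (0.290, 0.381 and 0.320). The pairing in the names is thus not borne out by these values in testosterone-treated birds 1 and 2 or blank birds 1 and 3. The per-bird differences, and the fits with the bird as a term, rest on the names.

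Library totals, gene lengths and reads were recovered from the RPKM steps. All 113221 manakin and 69097 finch values were whole reads to within a relative 1e-09. Of the manakin counts 60.0% to 71.5% per library were even, against 48.6% to 49.7% in finch. The cause was not tested, and the 3-read floor covers counting error alone. The read recovery and the limma fits were tested on simulated data.

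Named genes are the 2 in each direction with the largest difference among genes called, filled up by smallest p, and the most abundant gene of each muscle. The members, lists and alternatives were chosen with earlier results of these data known. The planned gene lists and cell type markers, given by symbol, could not be matched to identifiers and were not tested. Python 3.11.15, numpy 2.4.6, pandas 2.3.3, scipy 1.17.1 and matplotlib 3.10.9 were used for the rest.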

Additional observations from a re-analysis of the deposited data

Results flagged for a closer look

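The muscle difference of ENSTGUG00000000287 differed between testosterone-treated and blank manakins by the test of that difference itself, by 6.13 on the log2 scale (limma adjusted p = 0.0466, 1 of 8989 genes called).

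The other results listed here had every testosterone-treated bird on one side of 0 and every bird of the other group on the opposite side, while the test of the difference did not pass. Against blank birds these were ENSTGUG00000013223 at 2.54, ENSTGUG00000007465 at -3.43 and ENSTGUG00000005330 at -3.81 (limma adjusted p = 0.761 for each). Against testosterone-only finches they were ENSTGUG00000006917 at 2.32 (limma adjusted p = 0.125), ENSTGUG00000007465 at -5.34 and ENSTGUG00000003194 at -3.35 (limma adjusted p = 0.102 for both). Some birds were barely on their side of 0. For ENSTGUG00000006917 the finches had -0.345, -0.102 and -0.005, hardly a muscle difference. All were chosen for a small p, which favours such patterns. ENSTGUG00000007465 came up against both groups, and these comparisons share the testosterone-treated birds.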

How the results depend on the processing

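The count of genes called between the muscles was 0 in 10 of 14 alternatives, among them both scalings, both filters, a pseudocount of 0.1 RPKM, limma-voom, array weights and a fit on 12 manakin libraries. It was 1 with no replicate block, which drops the pairing of the muscles by bird code. The values did not bear out that pairing in testosterone-treated birds 1 and 2. The count was 0 to 10 when a bird was left out, with the 10 without bird 2. Leaving out bird 2 gave 14 with no replicate block and 8 with median-ratio scaling, alternatives that were added after seeing the data, as were all those on the counts of 2-fold genes. The cause of the difference that bird 2 makes was not tested.

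The contrast with blank birds had 1 called gene. It had 0 with no replicate block (pairing dropped), a pseudocount of 0.1, no filter, median-ratio scaling, quantile scaling and limma-voom, and 0 to 1 when a bird was left out. The contrast with finches had 0 called genes, but 1 with no replicate block, 7 with no filter, 2 with the stricter filter (5 RPKM), 2 with limma-voom, 9 with array weights and 0 to 17 when a bird was left out. The cause was not tested.

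None of the 12 named differences tested in these 3 fits changed sign under any alternative. All were chosen by a small p or, if called, by size, which favours a stable sign. Those between the muscles also had to have the same sign in all 3 birds, so leaving out a bird could not reverse them. Nothing is therefore read from the stable signs. The top-20 share difference was -2.57 percentage points with 10 genes and -8.51 with 50, and -6.65 to -3.57 without 1 bird. With 10 genes, bird 3 was slightly higher in SH, at 26.16% against 25.98% in PEC. Counts of 2-fold genes were 332 higher and 39 lower with a pseudocount of 0.1, and 342 to 895 higher and 52 to 84 lower without 1 bird, where fewer birds must meet the rule.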
